A study of Mus musculus with 20 samples.

Results

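The regions described here are those whose accessibility separated 2 kinds of mouse mammary tumour cells, luminal PY230 cells high in SOX10 and luminal PY230 cells low in SOX10. All regions of the authors' 2 lists for this comparison were taken, with no further selection. There were 3208 regions open in SOX10-high cells and 15108 regions closed in SOX10-high cells, 18316 of the 311468 regions in the 14 deposited lists. The score that the authors gave each region was not used to choose any of them.

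SOX10 belongs to the SoxE group of transcription factors, known for its part in neural crest and glial development. In the mammary gland it is known from stem-like fetal cells, luminal progenitors and basal cells, and is low in mature luminal cells. Luminal progenitors are the precursors of the milk-producing lining. Mature luminal cells are the hormone-sensing cells of the same inner layer, and basal cells form the contractile outer layer.

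Open chromatin was measured by ATAC-seq, in which a transposase inserts sequencing adapters into accessible DNA of sorted nuclei. PY230 cells, a line known to come from a mammary tumour of an MMTV-PyMT mouse, in which a mammary promoter drives a viral oncogene, were grown as transplants in syngeneic adult mice of strain C57BL6J. Cells sorted from these tumours gave 3 luminal SOX10-high samples and 3 luminal SOX10-low samples. The context is given by 8 normal samples of C57BL6J mammary gland, 2 each of fetal mammary stem cells from embryonic day 18 (fMaSC), adult basal cells, adult luminal progenitors and adult mature luminal cells. Another 6 samples (basal PY230 cells high in SOX10, basal C3-1-TAg tumour cells high in SOX10, a PY230 bulk tumour and a PY230 culture) have no list and were not analysed here. The labels do not say how cells were sorted by SOX10, and the 6 luminal tumour samples compared come from 1 line. In bulk libraries, fewer cells with an open site and a smaller opening in each cell cannot be told apart.

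Both PY230 lists combine samples, so there are no values per sample, no replicate error and no test over samples, and the depth of the libraries is unknown. Intervals given below are exact (Clopper-Pearson) 95% intervals that cover counting error only. Regions of a list are not replicates of a condition, and the spread over the 20 chromosomes (19 autosomes and X) is given beside the main shares. All coordinates are of the mm9 build, counted from 1. No gene is named from a position, because the gene annotation at hand is of another build. The Sox10 locus was therefore not located and not set apart. Whether any region or window named below falls in it was not checked.

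The members were selected on the accessibility contrast itself, as the authors called it, so their number, width and score are a description. Open regions covered 5.11 Mb and closed regions 18.2 Mb. The open regions were the wider ones. Their median width was 1400 bp (quartiles 1100 and 1900 bp), and that of closed regions 1100 bp (800 and 1400 bp). A width over 3 kb was found for 145 open and 187 closed regions. The authors' deposited table gave open regions scores between 20.2 and 1153, with a median of 44.5. In the authors' deposited table closed regions had scores from 20.3 up to 15520, with a median of 123, and 3 further scores were written as infinite. Both lists began close to the same lowest value. Just inside that limit, the authors' deposited table had 222 open and 194 closed regions with scores under 25, and regions below it were not listed.

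**Figure D1:**
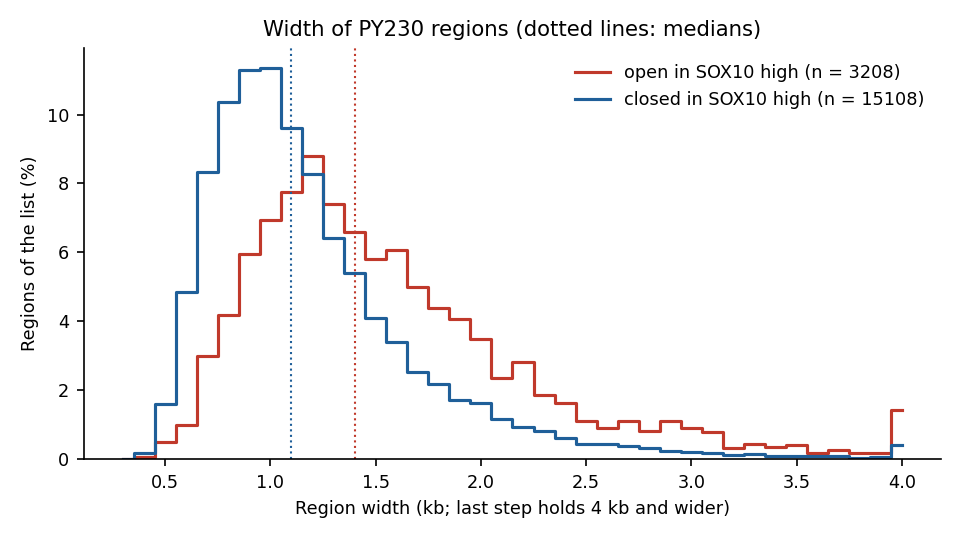
Widths of the PY230 regions, in kb, as the percentage of each list per 100 bp step, for regions open (red) and closed (blue) in SOX10-high cells. The dotted lines mark the medians, 1400 bp for open and 1100 bp for closed regions, and the last step holds all regions of 4 kb and wider.

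The first question was which normal cells keep these regions open. Over the full peak lists, most regions open in SOX10-high tumour cells held a peak of another normal type and none of mature luminal cells. A peak in at least 1 normal type but none in mature luminal cells was present in 59.5% of open regions (57.8 to 61.2%), against 3.61% of closed regions (3.32 to 3.92%). Over chromosomes this share ran between 46.4% and 72.6% for open regions and between 2.08% and 5.23% for closed regions, so the ranges did not overlap. Over the full lists, fMaSC peaks lay in 43.6% of open and 25.6% of closed regions, and luminal progenitor peaks in 48.7% and 31.45%. Mature luminal peaks lay in 7.29% of open and 83.1% of closed regions. The sizes depend on how many normal peaks are counted. Full lists held 79910 fMaSC, 80294 basal, 60030 luminal progenitor and 61584 mature luminal peaks. A cut to an equal number therefore keeps a different part of each. With the 30015 strongest peaks of each list, 66.6% of open and 45.5% of closed regions held no normal peak, while 19.1% of open regions held one of fMaSC and 20.8% one of luminal progenitors. The share with peaks in all 4 normal types went the other way, with 3.68% of open and 13.5% of closed regions, and closed regions had the higher share on 20 of 20 chromosomes. This does not make closed regions rich in shared sites. When overlapping normal peaks were merged into 128797 sites, 27947 had peaks of all 4 types. Of those, 7.33% lay in closed regions, below the 11.0% of all sites.

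Single combinations of normal peaks show what each list was made of. Among open regions, 483 held a luminal progenitor peak alone, 452 held peaks of fMaSC, basal cells and luminal progenitors, 319 held peaks of fMaSC and luminal progenitors, and 308 held an fMaSC peak alone. A mature luminal peak alone was found in 17 open regions, or 0.530% of them. Among closed regions that combination was the commonest, with 6146 regions or 40.7%. Peaks of all 4 types followed with 2044 closed regions, and the 2 luminal types without the others with 1439. A luminal progenitor peak alone was found in 33 closed regions, or 0.218%, against 15.1% of open regions.

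Over whole lists, basal peaks did not separate open from closed regions. They lay in 29.2% of open regions (27.7 to 30.8%) and 30.1% of closed regions (29.3 to 30.8%), and open regions had the higher share on 10 of the 20 chromosomes. These shares count regions with no normal peak, which made up 33.2% of the open and 13.3% of the closed list. Among regions with a normal peak, basal peaks were therefore more frequent in the open list. The shares were not set against the basal share of all normal sites. The near equality over whole lists also did not hold at higher scores. Among regions at or above the median score of their list, basal peaks lay in 28.7% of open and 21.6% of closed regions, which turns the sign of the difference. The fMaSC and luminal progenitor shares were higher in the open list on 20 of 20 chromosomes, and the mature luminal share was higher in the closed list on 20 of 20.

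Seen from the normal gland, sites split by whether mature luminal cells had a peak there. Overlapping peaks of the 4 types were merged into 128797 normal sites, of which 1.88% lay in open and 11.0% in closed PY230 regions. These are the background shares for the counts that follow. Sites fall into 15 combinations of cell types. In the 7 combinations without a mature luminal peak, between 0.717% and 12.1% of sites lay in open regions and between 0.674% and 2.06% in closed regions. In the 8 combinations with one, between 0.145% and 2.15% lay in open regions and between 7.33% and 42.8% in closed regions. The closed shares of these 2 sets of combinations did not overlap.

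Within the sites that lacked a mature luminal peak, the luminal progenitor peak marked the higher open shares. Sites of fMaSC and luminal progenitors together lay in open regions in 12.1% of cases (324 of 2670, interval 10.9 to 13.4%), and sites of luminal progenitors alone in 9.66% (593 of 6136). With basal peaks added the share was smaller, at 5.56% for fMaSC, basal and luminal progenitor sites and 4.29% for basal and luminal progenitor sites. All 4 combinations were above the background of 1.88%. Sites with neither luminal peak were at 1.36% (676 of 49671), below it, and among these the fMaSC sites, at 2.18%, stood above basal sites, at 0.717%.

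Within the sites that had a mature luminal peak, the closed share was highest where other types had none. It was 42.8% (6750 of 15777, interval 42.0 to 43.6%) for sites of mature luminal cells alone and 36.9% for sites of both luminal types. It was 7.33% (2048 of 27947) for sites shared by all 4 types, the one combination of the 8 below the background of 11.0%. Sites shared by all 4 types were also the widest, at a median of 1332 bp. The median of mature luminal sites alone was 403 bp. A luminal progenitor peak in addition to the mature luminal one went with a smaller closed share in each setting of the other types. With no other peak the closed share was 36.9% with and 42.8% without the luminal progenitor peak. Beside a basal peak it was 24.3% with and 32.0% without it, and beside an fMaSC peak 19.3% with and 27.6% without it. The gap was widest beside fMaSC and basal peaks together, at 7.33% with and 25.7% without it.

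**Figure D2:**
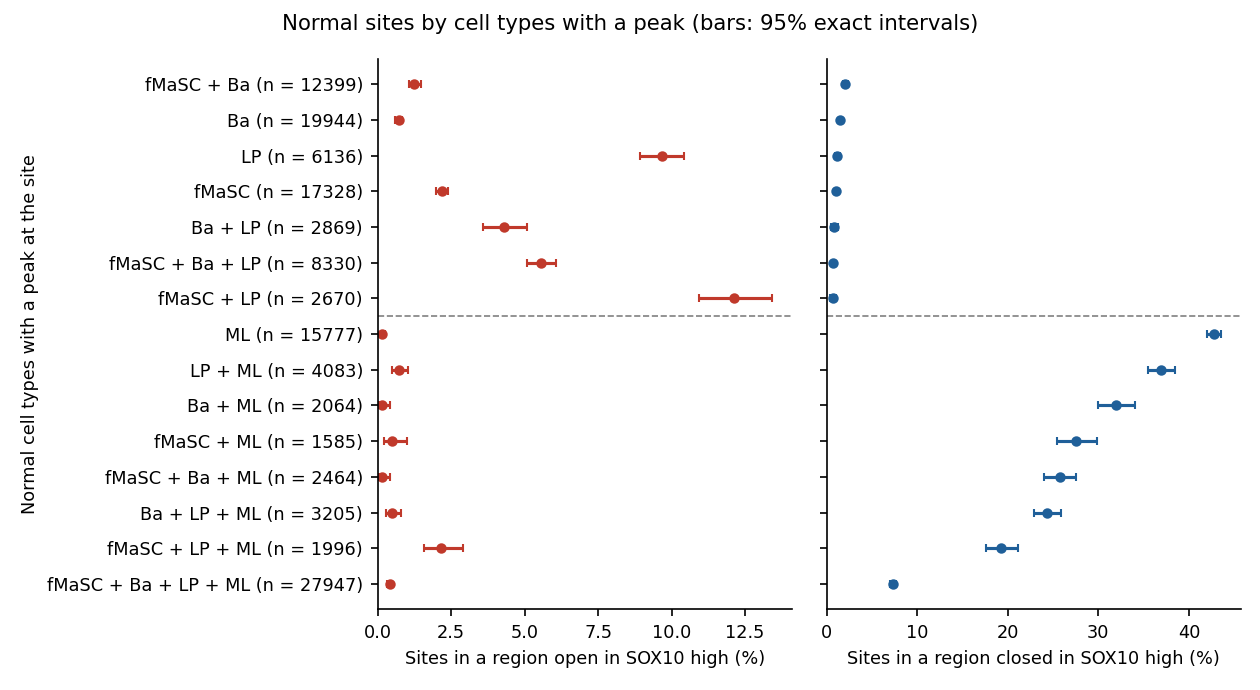
Percentage of normal sites that lay in a region open (left, red) or closed (right, blue) in SOX10-high cells, for each of the 15 combinations of normal cell types with a peak at the site (Ba, basal; LP, luminal progenitor; ML, mature luminal). Points are shares and bars exact 95% intervals, the 2 horizontal scales differ, and the dashed line separates the 7 combinations without a mature luminal peak (above, up to 12.1% open) from the 8 with one (below, up to 42.8% closed).

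Normal peaks were centred on the PY230 regions and were not spread around them. At the exact centre of open regions, a luminal progenitor peak was present in 35.7%, an fMaSC peak in 30.1% and a basal peak in 21.0%. At 5 kb from the centre the same peaks covered 5.07%, 4.07% and 6.13% of open regions. Mature luminal peaks lay at the centre of 3.43% of open regions, at 0.281% and 0.374% of them 1 kb to either side, and at 3.55% 5 kb away. They thus stood above their near flanks, as the other types did, but not above the level 5 kb away. At the centre of closed regions 72.4% had a mature luminal peak, against 4.38% at 5 kb. Mature luminal peaks covered 1.95% of the bases of open regions and 47.0% of those of closed regions.

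**Figure D3:**
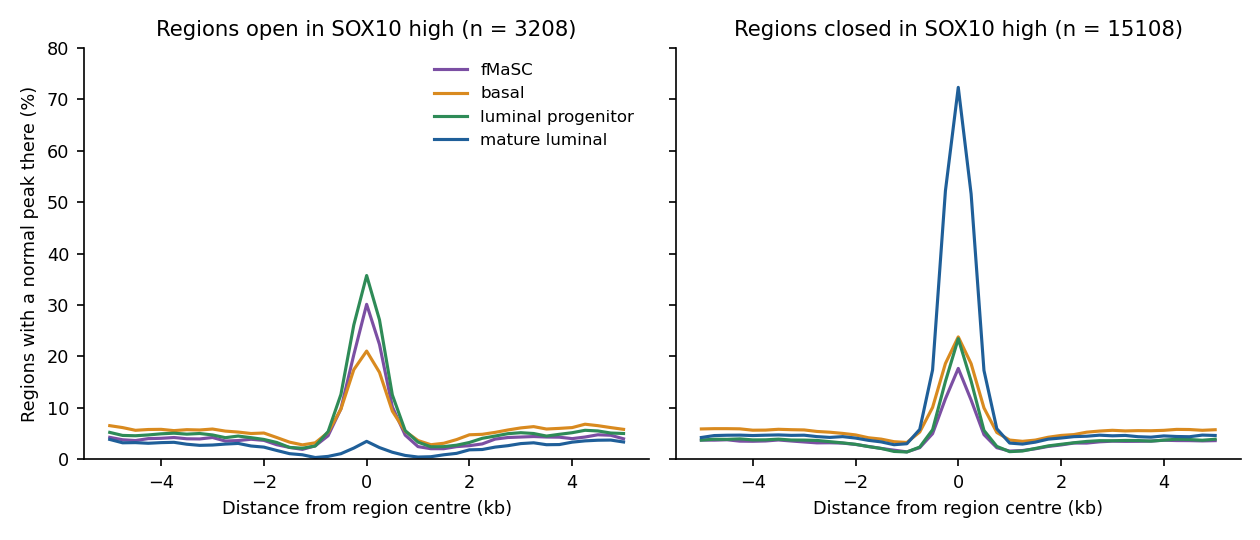
Percentage of regions with a normal peak at each distance from the region's centre (kb), for 3208 regions open (left) and 15108 regions closed (right) in SOX10-high cells, with 1 line for each normal cell type. In open regions the luminal progenitor line reaches 35.7% and the mature luminal line 3.43% at the centre, and in closed regions the mature luminal line reaches 72.4%.

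The next question was whether the strength of a normal peak went with its place in the lists. The authors' fold of a peak, its enrichment over the background that their caller used, ranks peaks within 1 list. Mature luminal peaks without a luminal progenitor peak were split into 4 equal groups by fold. Of these, 17.8%, 25.9%, 40.2% and 69.0% lay in closed regions, in order of increasing fold, so that most of the strongest group was closed in SOX10-high cells. In open regions lay 17 of 5595 peaks of the weakest group and 1 of 5595 of the strongest. Luminal progenitor peaks without a mature luminal peak showed a smaller gradient in the open list, with 4.73%, 5.82%, 7.07% and 11.2%. For fMaSC peaks without a mature luminal peak the open shares were 2.25%, 2.12%, 2.69% and 5.56%, and for basal peaks 1.68%, 1.73%, 2.21% and 2.58%. At most 2.58% of any such group of basal peaks was open.

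These gradients did not hold over all peaks of a type. Over all mature luminal peaks, those shared with luminal progenitors included, the closed shares were 13.7%, 22.0%, 28.7% and 22.0% by increasing fold, with no further increase in the strongest group. Over all luminal progenitor peaks, those shared with mature luminal cells included, the gradient turned round. Their open shares were 3.46%, 3.55%, 3.09% and 1.45% by increasing fold, and their closed shares 10.9%, 11.2%, 8.65% and 2.94%. The few mature luminal peaks inside open regions were weak, with a median fold of 5.73 over 241 peaks, against 9.47 over 13305 peaks inside closed regions and 7.97 over 48038 peaks outside both lists.

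**Figure D4:**
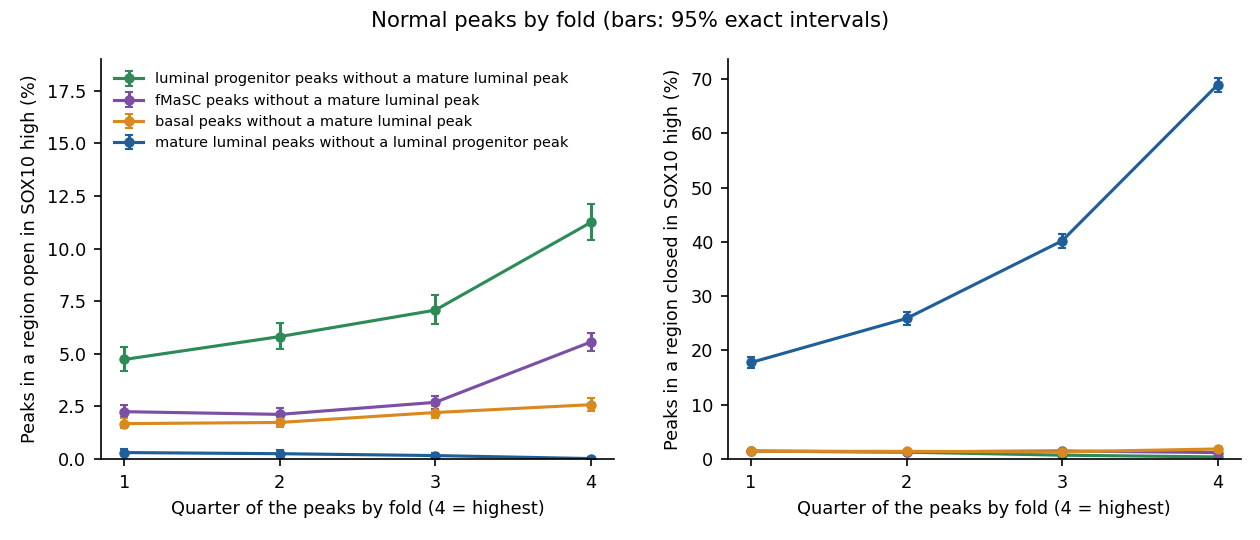
Percentage of normal peaks that lay in a region open (left) or closed (right) in SOX10-high cells, for 4 groups of peaks of increasing fold within each cell type's list (1, lowest; 4, highest). Points are shares and bars exact 95% intervals; mature luminal peaks without a luminal progenitor peak climb to 69.0% closed, and luminal progenitor peaks without a mature luminal peak to 11.2% open.

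The authors also deposited, for each normal type, a UAR and a URR list, abbreviations that the labels do not spell out. Among these 8 lists, those of the luminal types showed the same split between them as the peaks did. The lists belong to the same normal samples as the peaks, so this is not an independent repeat. Mature luminal UARs lay in closed regions in 83.1% of cases (2728 of 3282), and 1 lay in an open region. By increasing score of the UAR, the closed share was 74.2%, 82.0%, 86.1% and 90.3% in 4 equal groups. Luminal progenitor UARs lay in open regions in 29.7% of cases (91 of 306, interval 24.7 to 35.2%) and in a closed region once. Their open share was 23.4%, 27.6% and 25.0% in the lower groups by score and 42.9% in the highest.

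The URR lists of the 2 luminal types mirrored this. Of 1028 mature luminal URRs, 114 (11.1%) lay in open and 2 in closed regions, with open shares between 10.5% and 11.7% in all 4 groups by score. Of 27 luminal progenitor URRs, none lay in open regions, where 3 counts would be 11.1%, and 20 lay in closed regions. Of 242 fMaSC URRs, 33 (13.6%) lay in closed regions and 1 in an open region. Of 71 basal URRs, 8 (11.3%) lay in closed regions and 1 in an open region. Over the full lists, both closed shares were near the background of 11.0%. By increasing score, however, the closed share of fMaSC URRs was 6.56%, 6.67%, 11.7% and 29.5%. The highest group (18 of 61, interval 18.5 to 42.6%) was above the background. Basal URRs, in groups of 17 or 18, had 2, 0, 4 and 2 closed cases. Fetal UARs were open in 7.61% of cases (93 of 1222), and the share was 4.25% in the lowest and 12.1% in the highest group by score. Basal UARs, the most numerous, were open in 0.836% and closed in 3.95% of 5144 cases, below both background shares of all normal sites. That closed background includes sites with a mature luminal peak, of which 22.3% were closed. Sites with a basal peak alone were open in 0.717% and closed in 1.51% of cases. Basal UARs were more often closed than those sites, but the 2 are not like intervals. Sites are merged peaks, whereas the calling of UARs is not given. Peaks of other types inside basal UARs were not counted.

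Most PY230 regions fell outside these lists. A UAR or URR of any type overlapped 344 open regions (10.7%) and 3066 closed regions (20.3%). The closed regions that overlapped a mature luminal UAR, 2786 of 15108, had a median score of 321 in the authors' deposited table, against 103 for the other closed regions.

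Regions outside every normal peak were the commonest single class of the open list. There were 1064 of them (33.2%, interval 31.5 to 34.8%), against 2006 closed regions (13.3%, 12.7 to 13.8%), and the open share was higher on 20 of 20 chromosomes. Their gap to the nearest normal site was also measured. No gap of random positions was computed beside it, so these values are a description. The median gap to the nearest one was 4022 bp for open and 3592 bp for closed regions, and 13.8% of open and 17.2% of closed regions outside peaks were within 1 kb of one. Only 19 open and 14 closed regions were more than 100 kb from any normal site. Narrow regions were outside peaks more often. Among the narrowest of 4 groups, 49.0% of open and 21.9% of closed regions had no normal peak, and among the widest 18.6% of open and 5.48% of closed regions had none.

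The regions with the highest scores illustrate both classes. The 3 open regions with the highest scores in the authors' deposited table were chr7:93661701-93662500 with 1153, chr7:54028001-54029400 with 679 and chr5:130398701-130399500 with 651. None of the 3 held a peak in any normal type, but they did not stand for high-score open regions in general. In 4 equal groups of open regions by increasing score, 31.55%, 36.0%, 28.9% and 36.2% held no normal peak. The 3 infinite scores of the authors' deposited table belonged to the closed regions chr1:177169201-177171000, chr11:86390301-86397900 and chr19:47587001-47590500. Each held a mature luminal peak, with a fold of 24.7, 19.7 and 25.2 in that order, and a luminal progenitor peak with a fold of 6.65, 6.24 and 8.52. Of closed regions outside normal peaks, chr19:10440301-10441100 had the highest score in the authors' deposited table, 3300.

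The widest regions differed from these. The open region chr4:62872901-62884400 spanned 11500 bp and held peaks of all 4 normal types. The next were chr4:46597301-46607700, with peaks of both luminal types, and chr8:87251301-87259100, with peaks of every type but mature luminal. The 3 widest closed regions, chr3:121432901-121443100, chr12:77631301-77640100 and chr11:100013401-100021900, all held peaks of the 4 types.

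Some regions overlapped a UAR or URR of a normal type. The open region chr4:114448801-114455200, 6400 bp wide, overlapped a luminal progenitor UAR and scored 497 in the authors' deposited table. Its luminal progenitor peak had a fold of 19.5, and its fMaSC and mature luminal peaks had folds of 5.57 and 5.98. The open region chr4:117243201-117244400 overlapped an fMaSC UAR and held an fMaSC peak alone. The open region chr15:78991901-78997900, 6000 bp wide, overlapped a mature luminal URR and scored 542 in the authors' deposited table. It held peaks of fMaSC, basal cells and luminal progenitors and none of mature luminal cells. The closed region chr11:94957701-94959100 overlapped a luminal progenitor URR and held peaks of every type but luminal progenitors.

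A few regions went against the general pattern. The 1 mature luminal UAR in an open region was at chr2:80675701-80677100, where the mature luminal peak had a fold of 28.1. The 1 luminal progenitor UAR in a closed region was at chr14:60425501-60427000, with a luminal progenitor peak alone of fold 4.57. Both regions had low scores in the authors' deposited table, 31.5 for the open and 27.3 for the closed one. The 2 mature luminal URRs in closed regions were at chr2:117949901-117952200 and chr18:7001401-7002800, and both held peaks of all 4 normal types.

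Neighbours within 10 kb were more often of the same list, but this did not hold at greater distance for open regions. Another region of the same list lay within 10 kb for 18.6% of open and 34.8% of closed regions, and a region of the other list for 9.45% of open and 2.07% of closed regions. Within 50 kb, 40.3% of open regions had an open and 41.3% a closed neighbour. The median gap from an open region was 89.6 kb to the next open and 66.8 kb to the next closed region. The closed list is the longer one, so these values and the runs that follow are not on an equal footing. Read in order along the chromosomes, 40.4% of open and 2.67% of closed regions stood alone between regions of the other list. The longest unbroken runs held 12 open regions, at chr1:96237401-97565400 and at chr5:75874101-76330500. Among closed regions, the longest runs held 90, at chr7:130437201-137753000, and 83, at chr4:140502001-147830400.

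Windows of 1 Mb were also searched for the most regions of each list. The 3 with the most open regions held 18 at chr4:62082701-63082700, 16 at chr4:114108401-115108400 and 15 at chr15:78661301-79661300, beside 3, 2 and 3 closed regions. Those with the most closed regions held 40 at chr7:136797001-137797000, 40 at chr14:118703401-119703400 and 39 at chr3:120864401-121864400, beside 1, 0 and 1 open regions. The windows differed in normal sites, with 139, 81 and 162 in the open ones and 97, 89 and 156 in the closed ones. The counts of regions were not scaled by them. Close contact of the lists did occur. The open region chr4:103059601-103061700 abutted the closed region chr4:103058601-103059600, and the open region chr13:96043701-96045100 abutted the closed region chr13:96042701-96043700.

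The balance of open and closed regions varied by chromosome. Open regions made up 9.00% of the PY230 regions of chromosome 9 and 32.5% of those of chromosome 18, with a median of 15.4% over 20 chromosomes. To compare like sites, open shares were taken over normal sites with a luminal progenitor and no mature luminal peak, and closed shares over sites with a mature luminal peak. The open share was lowest on X, at 4.15%, and highest on chromosome 19, at 12.8%. The closed share was lowest on X, at 14.7%, and highest on chromosome 14, at 26.0%. Both shares were therefore lowest on X. Over the 19 autosomes they ran in opposite directions, with Spearman's rho of -0.63, and with X included rho was -0.39. In 241 bins of 10 Mb rho was -0.26, a weak relation. Chromosomes and bins of the same libraries are not independent, so these are descriptions.

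**Figure D5:**
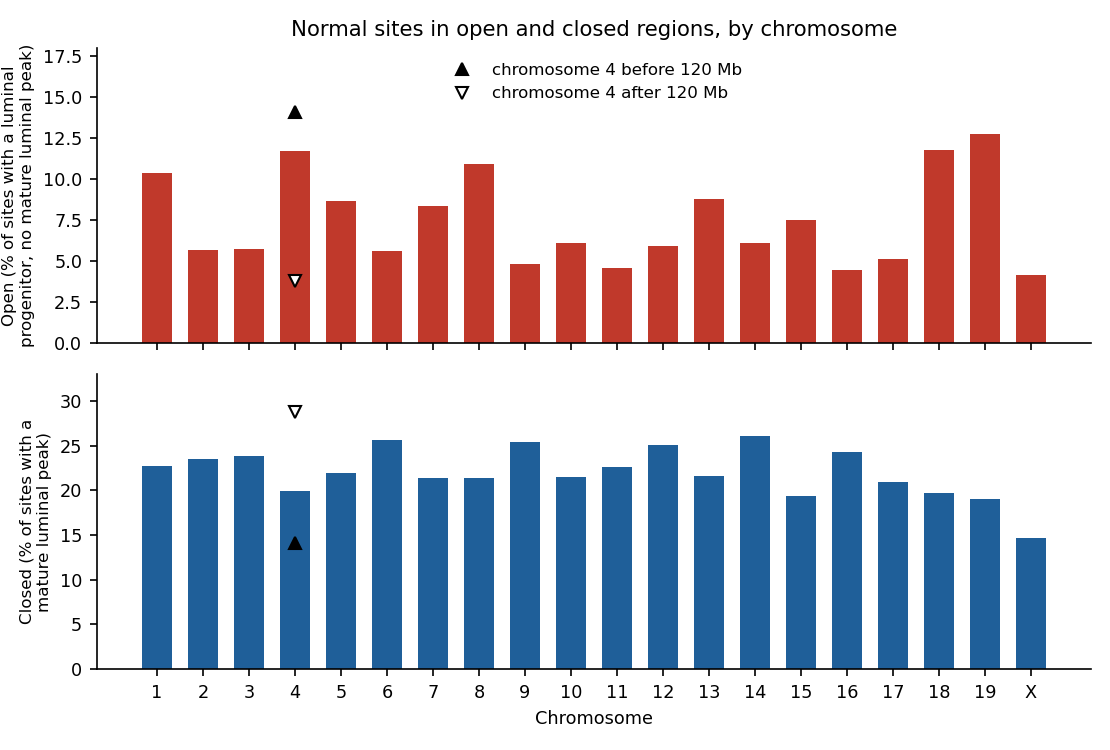
Percentage of normal sites with a luminal progenitor and no mature luminal peak that lay in regions open in SOX10-high cells (top, red), and percentage of sites with a mature luminal peak that lay in closed regions (bottom, blue), for each chromosome. Triangles give chromosome 4 before (filled, 14.1% open and 14.1% closed) and after (empty, 3.79% open and 28.8% closed) the 120 Mb position.

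Chromosome 4 changed along its length. It held 11.5% of open and 5.80% of closed regions, beside 6.45% of all normal sites. Before the 120 Mb position, a boundary chosen after these values were seen, there were 348 open and 375 closed regions. After it there were 20 open and 501 closed regions. The open share of luminal progenitor sites without a mature luminal peak was 14.1% (133 of 942, interval 12.0 to 16.5%) before and 3.79% (11 of 290, 1.91 to 6.69%) after the boundary, against 7.24% on the other chromosomes. The closed share of mature luminal sites was 14.1% (322 of 2289, 12.7 to 15.6%) before and 28.8% (442 of 1537, 26.5 to 31.1%) after it, against 22.5% on the other chromosomes.

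In the 2 segments, both shares thus stood on opposite sides of the pooled values of the other chromosomes. Segments of like size elsewhere were not compared. In the smaller bins of 10 Mb, open shares ran from 0% to 27.8% and closed shares from 7.27% to 44.3%. These extremes lay on other chromosomes. Over whole chromosomes, only 18 (11.8%) and 19 (12.8%) had a higher open share than chromosome 4 (11.7%). Whether such a change along the length is particular to chromosome 4 was not tested. The UARs are overlaps with the same open and closed regions, so their values are not independent of the split of chromosome 4. Mature luminal UARs were closed in 66.7% of 150 cases before and 94.3% of 53 cases after 120 Mb, against 83.7% elsewhere. Fetal UARs were open in 9 of 51 cases before and 1 of 27 after it, against 7.26% elsewhere.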

How the data were processed

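ATAC-seq lists of mouse mammary cells were used in the mm9 build. The submitters' processing notes name, with no role, MACS2 2.1.1, SICER, Bowtie 0.12.8, bedtools 2.20.1, SAMtools 1.3.1 and FastQC. The value of each normal peak is a fold (a ratio over the caller's background) deposited by the authors, who called peaks on both samples of a type together at a q-value of 0.001, per the labels. The 2 PY230 and 8 UAR and URR lists carry a score deposited by the authors, whose scale and calling are not given in the sources used here. Whether other libraries entered the PY230 lists is not given either. How duplicates, repeats and Tn5 offsets were treated is not given, and these choices can change which peaks exist.

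The lists ending on a 100 bp grid were moved by 1 base to count from 1. The 3 mitochondrial peaks of each normal list were left out. Overlap means at least 1 shared bp. Shares have exact 95% intervals. Regions named were the 3 highest scores, the 3 widest, the 3 densest windows, the nearest open and closed pairs, and the highest score in chosen UARs, URRs and outside normal peaks. The members of the lists and these rules were chosen with earlier results of these data known. The regions named as going against the pattern and the chromosome 4 boundary were chosen after their values were seen. No count, signal or value per sample was used, so the depth is unknown and no test over samples was made. With no mm9 genome or annotation at hand, planned counts of motifs, GC content, gene starts and gene lists were left out and no sequence is printed. Alternatives are in the closing section. Python 3.11.15, numpy 2.4.6, pandas 2.3.3, scipy 1.17.1 and matplotlib 3.10.9 were used, and overlaps were tested on simulated data against bedtools 2.31.1.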

Additional observations from a re-analysis of the deposited data

How the results depend on the processing

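The differences in sign between the lists for fMaSC, luminal progenitor, mature luminal and no normal peak held under the 6 alternatives tried (overlap of 50%, the 30015 strongest peaks of each list, regions of 500 bp, autosomes only, merging within 500 bp, and regions at or above the median score), and the basal one turned under the last. With the strongest peaks, fMaSC peaks lay in 19.1% of open and 8.58% of closed regions, basal peaks in 8.73% and 11.3%, luminal progenitor peaks in 20.8% and 11.3%, mature luminal peaks in 1.34% and 49.3%, and no peak in 66.6% and 45.5%. Then 6.50% of sites with a luminal progenitor and no mature luminal peak were open, and 25.6% of sites with a mature luminal peak were closed. With regions of 500 bp the shares in open and closed regions were 38.9% and 23.1% (fMaSC), 26.0% and 28.2% (basal), 44.8% and 29.4% (luminal progenitor), 5.27% and 81.3% (mature luminal), and 37.7% and 14.8% (none), and the 2 site shares were 6.59% open and 21.1% closed. With regions at or above the median score they were 50.9% of open and 27.3% of closed regions (luminal progenitor), 8.92% and 86.8% (mature luminal), 17.7% of closed regions (fMaSC), 21.6% (basal) and 12.0% (none), and the site shares 3.99% open and 11.7% closed, over fewer regions by construction. Among peaks at or above the median fold, the lowest and highest groups by fold were 9.57% and 14.4% open for luminal progenitor peaks, and 53.5% and 83.5% closed for mature luminal peaks. Within 5 kb, 12.1% of open regions had an open and 4.27% a closed neighbour, and 23.4% of closed regions a closed and 0.940% an open one; within 50 kb these were 40.3%, 41.3%, 70.6% and 11.3%. Of all 159 alternatives, 67 moved beyond the interval, 22 of them among the 68 for single combinations, opposite site classes and chromosome 4 segments. With chromosome 4 divided at 130 Mb, an alternative added after seeing the data, the closed share before the boundary was 16.5%. The cause of these shifts was not tested unless stated.

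No paired analysis was possible because the lists combine the samples and no result comes from a test, and for the same reason no replicate was left out. Analyses of motifs, GC content, gene starts and gene lists were not run. Depth per sample is unknown, so the ratio of closed to open regions and any region missing from a list cannot be weighed against it.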
